A study of Mus musculus with 6 samples.

Results

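Potassium channel genes other than Kcnma1 were examined in cultured bone marrow stromal cells (BMSCs) of mice lacking the long non-coding RNA NONMMUT002667 (KO) and of wild-type mice (WT). The members were all non-control probes whose gene name in the array files begins with Kcn, goes on with lower-case letters and then has a number, without the 6 probes of Kcnma1. This gave 96 gene names with 173 probes, of 37074 gene names and 56605 probes in all. The family was chosen by the measured KO against WT values of Kcnf1, which was lower in KO cells in this same comparison. The KO against WT values of its members are therefore given as a description with their errors, and nothing is read from how many of them passed a threshold.

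The study had 3 KO samples and 3 WT samples, all labelled male, each hybridised in 1 colour to 1 Agilent array. Femurs were digested with collagenase, Sca-1+ CD29+ cells without CD45 or CD11b were sorted, and these were cultured to the first passage. The KO and WT groups differed by the NONMMUT002667 genotype alone as far as the labels say. How the gene was deleted, the strain, the age and the number of animals behind a sample are not given in the sources used here, so errors measure the spread between these 6 samples, which may be technical. A description field and the extraction text speak of human blood, while titles, source names and organism all give mouse BMSCs, as followed here.

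Potassium channels let potassium leave or enter the cell along its gradient and set the resting voltage. Voltage-gated pore subunits open on depolarisation, inward rectifiers pass current best near rest, calcium-activated channels follow calcium in the cytosol, and two-pore channels carry a background leak. Silent subunits (the Kcnf, Kcng, Kcns and Kcnv genes) form no working channel alone and act by joining other voltage-gated pore subunits, while auxiliary subunits tune the gating of a pore. In bone marrow cultures, osteoblast-lineage cells and macrophages are both known to carry several of these channels.

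Values are log2 of the background-corrected signal minus the array's 75th percentile, so 0 is the 75th percentile and 1 unit is a factor of 2. Between 49.0% and 53.0% of probes were well above background on the KO arrays, against 54.3% to 56.7% on the WT arrays. The lowest level that counted as well above background lay at -4.14, -3.97 and -3.58 on KO arrays 1 to 3, against -4.40, -4.61 and -4.58 on WT arrays 1 to 3. The member probes above background on no array had a median of -6.31, -6.22 and -5.83 on the KO arrays, against -6.55, -6.78 and -6.74 on the WT arrays, so the dim end of the scale sat higher in KO. The first position number in the array identifiers was 2 for all KO arrays and 1 for all WT arrays, so array position and genotype cannot be told apart. No probe carries the name NONMMUT002667, so its loss could not be checked on these arrays. Against the male label, Xist, a female-cell RNA, gave signal on KO array 1 (-0.35) and WT array 3 (-0.52), where the Y-linked Eif2s3y was not detected. Values without these 2 arrays stand beside the results.

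The labelled cell type was checked against marker lists. All 9 stromal markers were tested, and their summed linear level spanned 70.2 to 82.2 times the 75th percentile in KO samples and 75.1 to 79.2 in WT samples. Itgb1, the brightest, weighs most in this sum, with means of 5.42 in KO and 5.50 in WT. At an unadjusted limma p under 0.05, 1 of the 9 was lower in KO (Nt5e, -1.21), beside 7.32% of all genes. By the same measure 1 was higher (Cxcl12, 0.37), beside 7.85%. The sum thus does not show that each stromal marker was equal between groups. All 10 macrophage markers were tested too, although the sort removed CD45+ and CD11b+ cells. Ptprc, which encodes CD45, averaged 3.53 ± 0.22 in KO cells and 3.33 ± 0.09 in WT cells (SD, n = 3 each), and Itgam, which encodes CD11b, averaged 4.15 ± 0.09 in KO cells and 4.02 ± 0.14 in WT cells (SD, n = 3 each). The summed macrophage level was 1093 to 1158 in KO samples and 1005 to 1035 in WT samples. Markers of both kinds of cell were thus detected in every sample, and a channel gene's signal cannot be assigned to either.

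Of the 96 potassium channel genes, 38 were detected, meaning that a probe was well above background on all 3 arrays of at least 1 group. This was 39.6% of the family, against 51.6% of all 37074 gene names on the array. Of these 38 genes, 27 were detected in both groups, 11 in WT only and 0 in KO only, and 58 were detected in neither. For 28.9% of the detected channel genes detection held in WT only, against 8.41% of all 19139 detected genes. The WT-only share moves with the level needed for detection, which was higher on every KO array than on any WT array. How far this accounts for the WT-only genes was not tested.

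**Figure D1:**
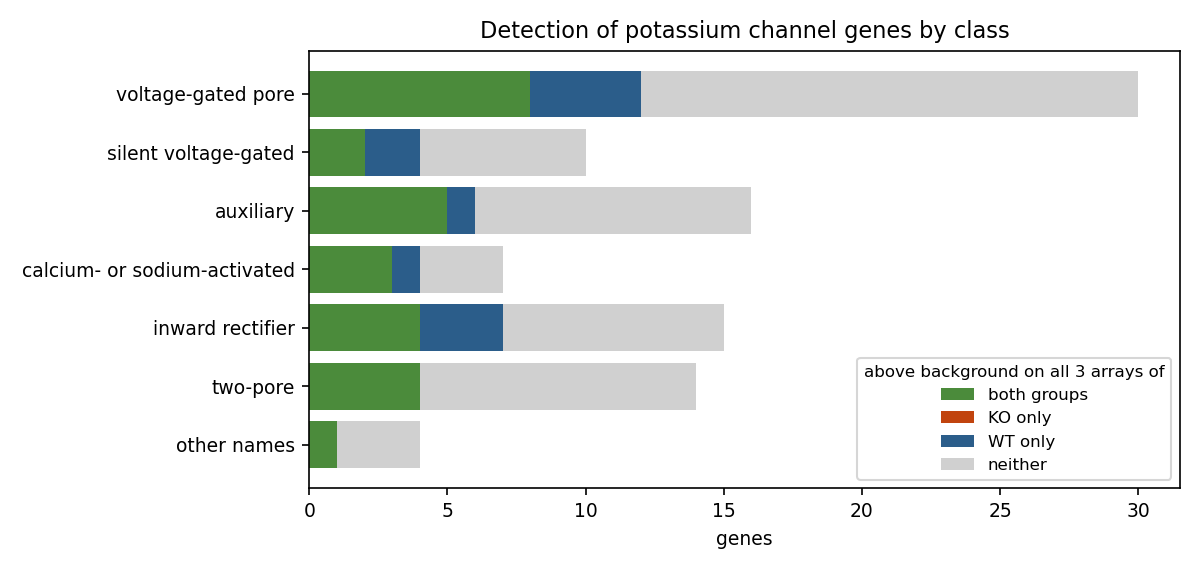
Number of potassium channel genes (horizontal axis) by class (vertical axis), split by whether a probe was well above background on all 3 arrays of both groups, of KO only, of WT only or of neither. The 11 WT-only genes lie in the voltage-gated pore, silent, auxiliary, calcium- or sodium-activated and inward rectifier classes, and no class has a KO-only gene.

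Among 30 voltage-gated pore genes, 8 were detected in both groups, 4 in WT only (Kcnd3 and Kcnh2 among them) and 18 in neither. Among 10 silent subunit genes, Kcng2 and Kcnv2 were detected in both groups, Kcnf1 and Kcns1 in WT only, and 6 in neither. Of 16 auxiliary subunit genes, 5 were detected in both groups, Kcnab1 in WT only and 10 in neither. Of 7 calcium- or sodium-activated genes, Kcnn1, Kcnn2 and Kcnn4 were detected in both, Kcnn3 in WT only and 3 in neither. Of 15 inward rectifier genes, 4 were detected in both, Kcnj9, Kcnj13 and Kcnj15 in WT only and 8 in neither. The 14 two-pore genes gave 4 detected in both groups, which were Kcnk1, Kcnk4, Kcnk6 and Kcnk13, and 10 in neither. Of 4 other names, 1 was detected, Kcnq1ot1, a non-coding RNA antisense to Kcnq1 that is not itself a channel. Thus each class had detected members, and among the undetected were all Kcna genes except Kcna7.

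The genes nearest the detection rule show how narrow it was. Just inside were, for example, Kcnab1 and Kcns1, well above background on 2 KO arrays and 3 WT arrays. Just outside were Kcne4 on 2 KO arrays and 1 WT array, Kcnk15 on 1 KO array and 2 WT arrays, and Kcnk2 on 0 KO arrays and 2 WT arrays. Kcne4, an auxiliary subunit that restrains Kcnq1 channels, measured -5.79, -3.83 and -0.94 on the 3 KO arrays, against -4.98, -4.36 and -5.50 on the 3 WT arrays. Its KO array 3 stood far above the other 5 arrays.

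The promoter windows of Kcnf1, Kcnh2 and Kcnk1 are shown first. Each of the 3 was at least 2-fold lower in KO by measured means, but only Kcnk1 was well above background on all 6 arrays. Kcnf1 was well above background on 0 KO arrays and Kcnh2 on 1, so their measured folds rest on KO values near background. RefSeq windows on GRCm38.p6 from 250 bases before to 50 after the gene start were used for Kcnf1 (chr12:17176839-17177138, minus strand), Kcnh2 (chr5:24329542-24329841, minus strand) and Kcnk1 (chr8:125994852-125995151, plus strand). Each reads 5′ to 3′ on the gene's strand, with every match of TGTGGT (a core bound by Runx factors), GGGCGG (bound by Sp factors) or TATAAA on either strand in capitals.
Kcnf1: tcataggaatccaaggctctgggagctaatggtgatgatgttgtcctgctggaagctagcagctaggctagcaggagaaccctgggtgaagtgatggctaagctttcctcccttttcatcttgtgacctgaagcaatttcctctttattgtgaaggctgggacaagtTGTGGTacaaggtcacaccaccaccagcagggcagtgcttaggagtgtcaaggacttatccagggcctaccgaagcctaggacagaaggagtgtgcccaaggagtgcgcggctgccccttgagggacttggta
Kcnh2: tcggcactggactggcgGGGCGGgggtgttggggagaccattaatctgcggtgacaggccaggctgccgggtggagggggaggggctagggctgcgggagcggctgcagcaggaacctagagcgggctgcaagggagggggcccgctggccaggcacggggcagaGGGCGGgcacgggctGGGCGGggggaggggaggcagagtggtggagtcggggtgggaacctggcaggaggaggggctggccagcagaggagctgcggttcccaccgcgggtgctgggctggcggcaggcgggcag
Kcnk1: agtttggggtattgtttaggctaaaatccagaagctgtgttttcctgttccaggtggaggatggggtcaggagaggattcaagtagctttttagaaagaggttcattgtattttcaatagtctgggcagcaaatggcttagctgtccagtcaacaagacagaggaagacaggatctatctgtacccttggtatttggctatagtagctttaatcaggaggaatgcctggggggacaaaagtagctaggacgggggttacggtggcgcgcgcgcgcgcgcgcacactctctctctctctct
The Kcnf1 window held 1 TGTGGT, a motif found in 16.8% of all 32851 windows of this length. The Kcnh2 window held 3 GGGCGG, a motif found in 35.7% of all windows. The Kcnk1 window held no match to any of the 3, so it has no capitals. TATAAA, in 13.6% of all windows, was in none of the windows shown. The windows shared no motif of the 3, and their GC content was 53.0%, 74.3% and 49.0% in the order printed. A match is a run of letters and not a measured binding site.

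Promoter composition of the family was set against detection. Of the 96 members, 70 had a RefSeq window. The median GC content was 57.3% for 29 detected genes, 61.3% for 41 undetected genes and 52.7% for all 27025 genes in the table. The ratio of observed to expected CpG had medians of 0.433, 0.450 and 0.389 in the same order. Detected and undetected members overlapped widely, with quartiles of GC content at 49.7% and 64.0% for detected genes and at 53.7% and 66.3% for undetected genes.

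Kcnf1, a silent subunit that gives currents only together with other pore subunits, was read by 1 probe at chr12:17179527-17179586 on the minus strand of mm9. It measured -5.55, -6.28 and -5.89 on the 3 KO arrays, against -4.04, -3.49 and -3.55 on the 3 WT arrays. All KO values lay below all WT values, and no KO array was well above background, so the KO level is only an upper limit. The KO level was at least 1.15-fold lower when the KO arrays were set at the lowest level that counts as well above background, and the measured means of -5.91 ± 0.36 in KO and -3.69 ± 0.30 in WT (SD, n = 3 each) differed by -2.21 with a 95% limma interval of -2.74 to -1.69. This difference chose the family, so it is a description, and nothing is read from its place past a threshold. Without the 2 arrays with Xist signal it was -2.32.

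Kcnh2, the hERG pore of cardiac repolarisation, was read by a probe at chr5:23827188-23827460 on the minus strand of mm9. It measured -5.76, -5.21 and -3.31 on the 3 KO arrays, against -2.79, -3.18 and -2.91 on the 3 WT arrays. KO arrays 1 and 2 were far below WT while KO array 3 came close to the lowest WT array and was the 1 KO array above background. The difference was -1.80 with a standard error of 0.59 and a 95% interval of -3.20 to -0.40. The adjusted limma p was 0.226. The difference was -2.53 without KO replicate 3, at an adjusted p of 0.041, but the adjusted p was 0.331 to 0.396 with any other array left out. Without the 2 arrays with Xist signal the difference was -1.28, at an adjusted p of 0.509. A second probe, at chr5:23825407-23825466, was above background on no array.

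Kcnk1, a two-pore channel that weakly rectifies inward, was well above background on all 6 arrays and so allowed a plain fold. Its probe at chr8:128554281-128554340 on the plus strand of mm9 measured -1.51, -2.43 and -1.53 on the 3 KO arrays, against -0.35, 0.09 and -0.37 on the 3 WT arrays. The groups did not overlap, with KO array 2 lowest and WT array 2 highest. The means of -1.82 ± 0.53 in KO and -0.21 ± 0.26 in WT (SD, n = 3 each) made a 3.05-fold deficit, a log2 difference of -1.61 with a 95% interval of -2.26 to -0.96. The limma p adjusted over all tested probes was 0.0829. Without the 2 arrays with Xist signal the difference was -1.85.

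**Figure D2:**
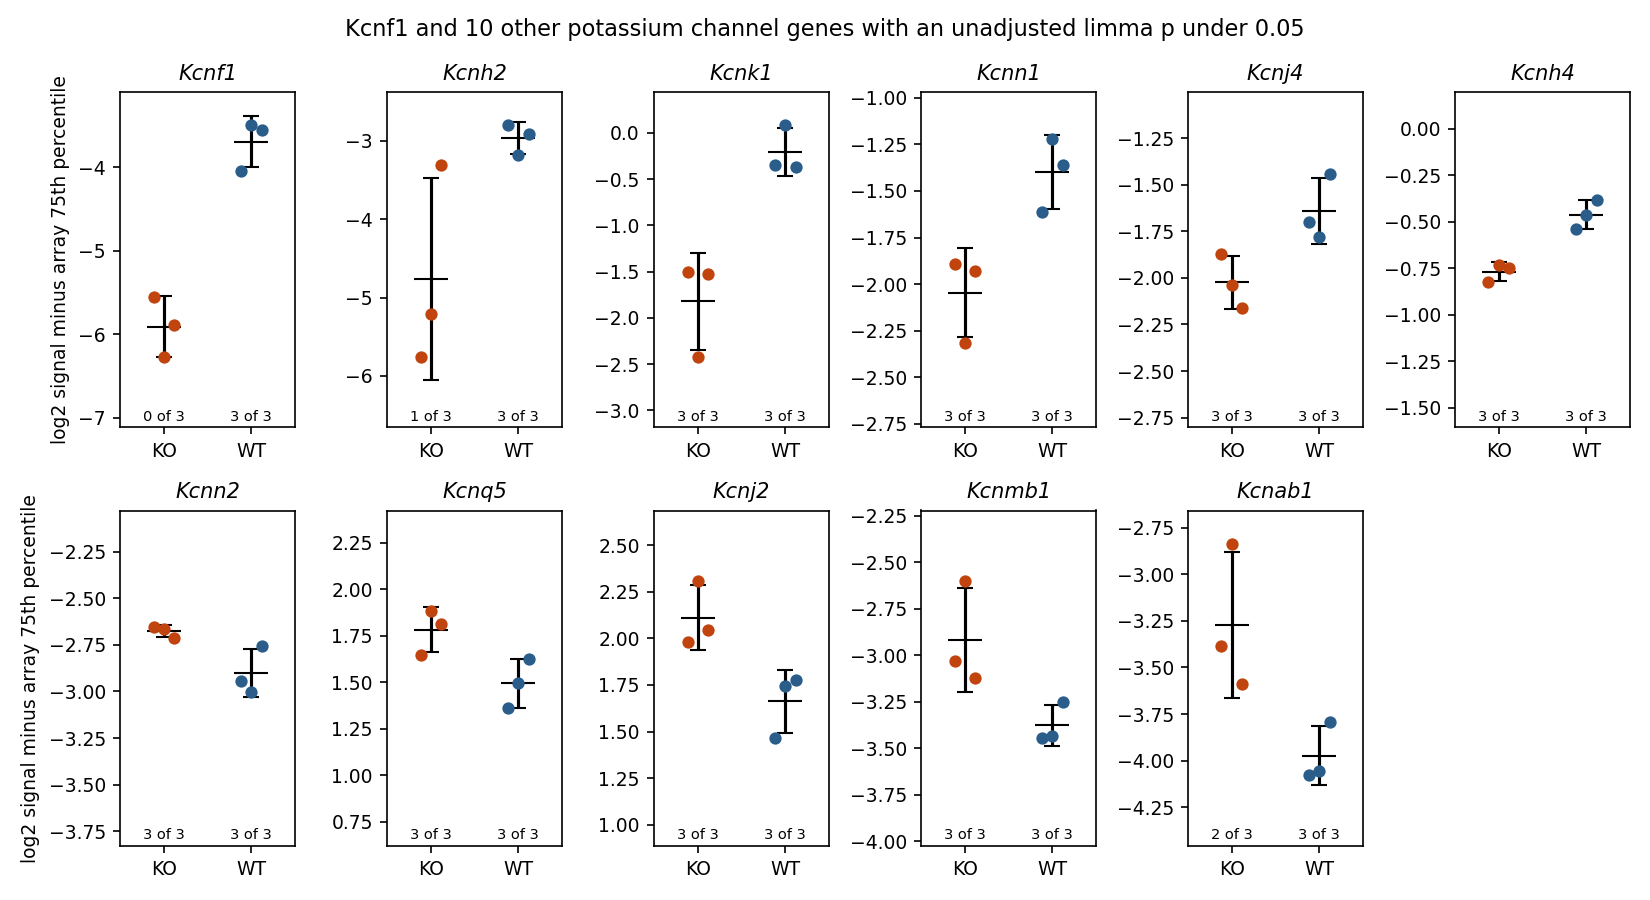
Values of each array (points; log2 signal minus the array's 75th percentile, vertical axis with its own range in each panel) in KO and WT samples for Kcnf1 and 10 other channel genes with an unadjusted limma p under 0.05, with mean and SD over 3 arrays; the count at the bottom is the number of arrays well above background. In all 11 panels the KO points lie on 1 side of the WT points. The means of Kcnf1, Kcnh2 and Kcnk1 are furthest apart, although KO array 3 of Kcnh2 comes close to the lowest WT array.

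Across the family, 1 of the 38 tested channel genes, Kcnf1, had a limma adjusted p under 0.05, where 0.0627% of all 19139 tested genes did, and it is the gene that led to the choice of the family. By direction this was 1 channel gene (2.63%) lower in KO beside 0.0522% of all genes, and 0 higher beside 0.0104%. At an unadjusted p under 0.05, 7 channel genes (18.4%) were lower in KO beside 7.32% of all genes, and 5 (13.2%) were higher beside 7.85%. All KO values lay below all WT values for 8 channel genes (21.1%), where this held for 9.52% of all genes, and above them for 8 others (21.1%), where it held for 12.7%. At least 2-fold lower with an unadjusted p under 0.05 were 4 channel genes (10.5%), beside 1.09% of all genes, and 0 were 2-fold higher, beside 0.157%. Without the 2 arrays with Xist signal, 0 channel genes had an adjusted p under 0.05, and at unadjusted p 5 of 39 (12.8%) were below WT, beside 6.03% of all genes, and 7 (17.9%) above, beside 5.47%.

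The middle of the family was near 0. The median log2 difference of the 38 genes was -0.02, with 20 below 0, against a median of 0.03 over all tested genes, with 42.4% of those below 0. The differences ran from -2.21 for Kcnf1 to 0.78 for Kcnv2, and for 30 of the 38 the 95% interval lay within 2-fold either way (78.9%), against 93.4% of all tested genes. The replicate SD of the channel genes had a median of 0.213, against 0.130 over all tested genes. By class, the median difference was -0.16 for 12 pore genes, -0.18 for 7 inward rectifiers, 0.20 for 4 silent subunits, 0.21 for 6 auxiliary subunits, 0.05 for 4 calcium-activated genes and 0.01 for 4 two-pore genes. No class moved as a block: each class with more than 1 tested gene held differences of both signs.

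**Figure D3:**
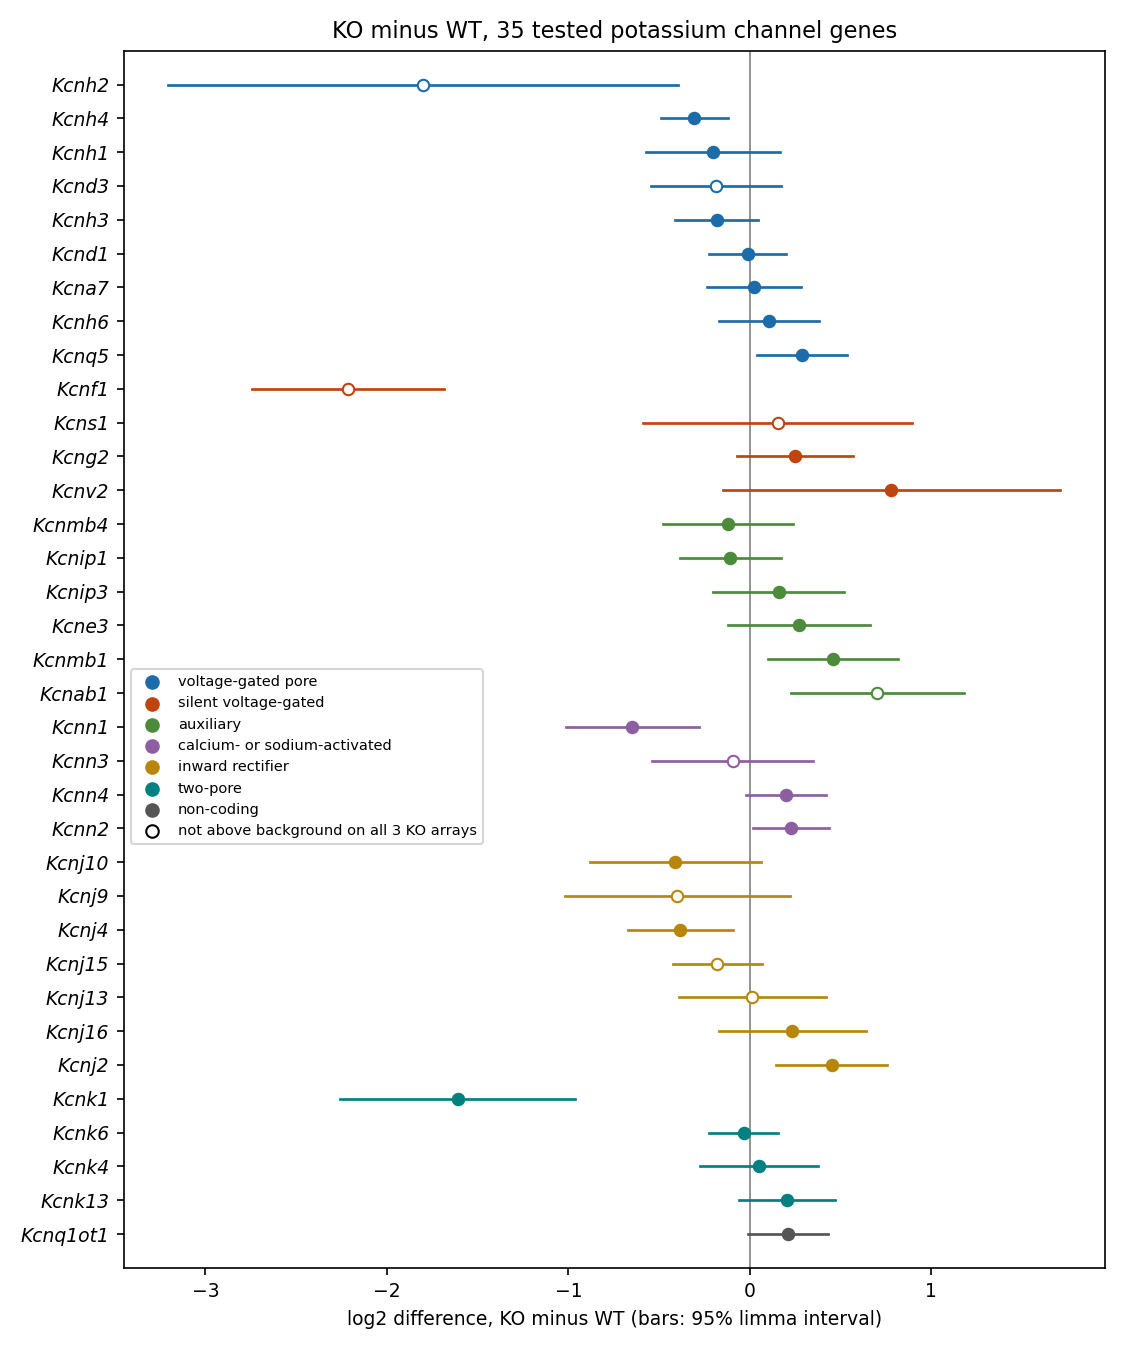
Log2 difference, KO minus WT (horizontal axis, points, with the 95% limma interval as bars), of 35 of the 38 tested potassium channel genes (vertical axis), coloured by class; open points were not above background on all 3 KO arrays. Kcnf1, Kcnh2 and Kcnk1 stand apart at -2.21, -1.80 and -1.61, while most other points lie within 0.5 of 0.

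Among the other voltage-gated pore genes, Kcnh4, of the elk branch of the Kcnh genes, had a tight difference. It measured -0.82, -0.73 and -0.75 on the 3 KO arrays, against -0.54, -0.46 and -0.38 on the 3 WT arrays, a difference of -0.31 with a standard error of 0.08. The groups did not overlap, yet its second tested probe gave 0.12, so the probes of Kcnh4 had opposite signs. Kcnq5, a subunit of the slow M current of neurons, measured 1.65, 1.89 and 1.81 on the 3 KO arrays, against 1.36, 1.50 and 1.62 on the 3 WT arrays. All KO values were higher by this probe, with a difference of 0.29 and a standard error of 0.10. Only 1 of 5 Kcnq5 probes was tested, and the other 4 were above background on no array.

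The other pore genes described here overlapped between KO and WT. Kcnd3, of the transient outward current of the heart, had a difference of -0.19 and was above background on 1 KO array. Kcnh1 had a difference of -0.20 and Kcnh3 one of -0.18. Kcnd1, an X-linked A-type pore, had a difference of -0.01 with a 95% interval of -0.22 to 0.20, and Kcna7, a shaker-type pore of muscle, one of 0.02 with an interval of -0.23 to 0.28. Kcnh6 gave 0.10. For each of these 6 genes the 95% interval included 0.

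The other 3 tested silent subunits did not show the low KO values of Kcnf1. Kcnv2, known from photoreceptors, measured -3.49, -3.39 and -2.02 on the 3 KO arrays, against -3.74, -3.98 and -3.50 on the 3 WT arrays. KO array 3 set this difference, which was 0.78 over all arrays and 0.31 without KO replicate 3. Kcns1, known from sensory neurons, measured -4.26, -3.05 and -3.49 on the 3 KO arrays, against -3.88, -3.96 and -3.43 on the 3 WT arrays, a difference of 0.15 with overlapping groups that was -0.12 without KO replicate 2. Kcng2 had a difference of 0.25 with overlapping groups. All 3 had 95% intervals that included 0.

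Of the auxiliary subunits, Kcnab1, a cytosolic beta subunit of voltage-gated pores, measured -3.39, -2.84 and -3.59 on the 3 KO arrays, against -4.08, -4.06 and -3.79 on the 3 WT arrays. All KO values were higher, by 0.70 with a standard error of 0.20, although the gene was detected in WT only. On KO array 3 its -3.59 lay just under -3.58, the lowest level that counted as well above background there. Kcnmb1, the smooth muscle beta subunit of the large-conductance calcium-activated channel, measured -3.03, -2.60 and -3.12 on the 3 KO arrays, against -3.45, -3.44 and -3.25 on the 3 WT arrays, a difference of 0.46 with a standard error of 0.15. Both had adjusted limma p-values above the threshold, at 0.180 for Kcnab1 and 0.227 for Kcnmb1. A second Kcnmb1 probe was above background on no array. The summed level of the 6 tested smooth muscle and pericyte markers was 266.5 to 294.7 in KO samples and 250.4 to 273.3 in WT samples. Acta2, the brightest, weighs most in this sum, with means of 7.03 in KO and 6.97 in WT. Differences were below 0 for 2 of the 6 markers, with the lowest at -1.56 for Cspg4, so the markers did not move together. Their part in the Kcnmb1 value was not tested. Kcnmb4, Kcne3, Kcnip1 and Kcnip3 overlapped, with differences of -0.12, 0.27, -0.11 and 0.16.

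Kcnn1, a small-conductance calcium-activated channel, had 3 tested probes, all with negative differences. Its brightest probe at chr8:73367057-73367116 on the minus strand of mm9 measured -1.89, -2.32 and -1.93 on the 3 KO arrays, against -1.62, -1.22 and -1.36 on the 3 WT arrays. The difference was -0.65 with a standard error of 0.15 and an adjusted limma p of 0.133. The probe at chr8:73367405-73367464 measured -2.86, -3.21 and -3.05 on the 3 KO arrays, against -1.99, -2.18 and -2.30 on the 3 WT arrays, a difference of -0.88. Another tested probe gave -0.39 with overlapping groups, so 2 of the 3 separated KO from WT.

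The other Kcnn genes lay above or near WT. Kcnn4, the intermediate-conductance channel of blood cells and macrophages, measured 4.37, 4.33 and 4.53 on the 3 KO arrays, against 4.14, 4.17 and 4.32 on the 3 WT arrays. The KO values were higher by 0.20 with a standard error of 0.09, and its other probes gave 0.08 and 0.09 with overlapping groups. All 10 macrophage markers had differences above 0 too, with a median of 0.13, and their part in the Kcnn4 value was not tested. Kcnn2 measured -2.65, -2.66 and -2.71 on the 3 KO arrays, against -2.95, -3.00 and -2.76 on the 3 WT arrays, a difference of 0.23. Only 1 of 4 Kcnn2 probes was tested, and the others were above background on no array. Kcnn3 overlapped, with a difference of -0.09, so the Kcnn genes did not move together.

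**Figure D4:**
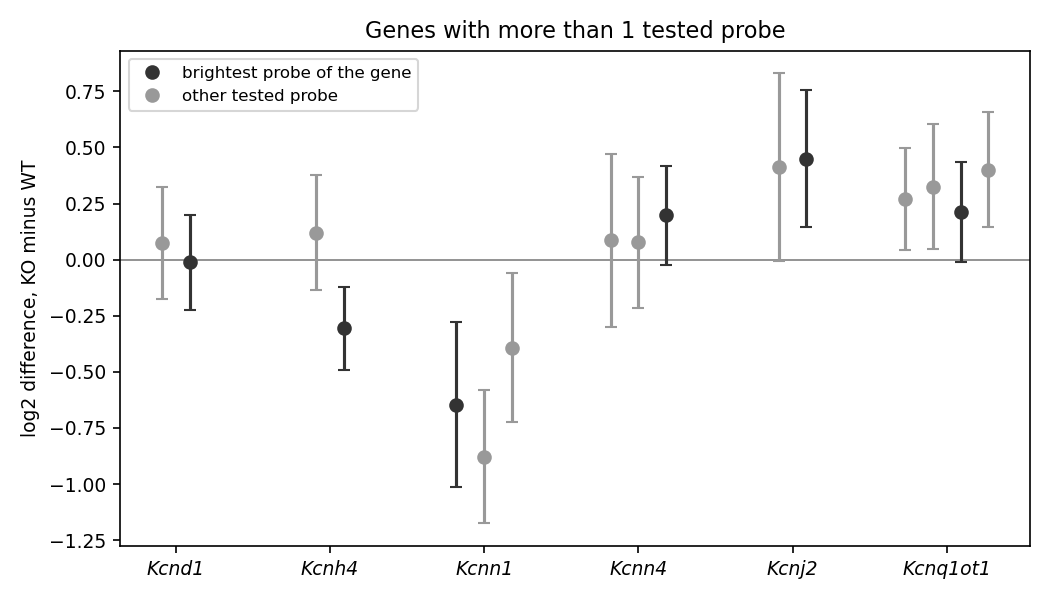
Log2 difference, KO minus WT (vertical axis, with the 95% limma interval as bars), of each tested probe of the 6 genes with more than 1 (horizontal axis), with the brightest probe in black. The 3 Kcnn1 probes lie below 0 and the 4 Kcnq1ot1 probes above 0, while the Kcnd1 and Kcnh4 probes have both signs.

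Among inward rectifiers, Kcnj2, the classical strong rectifier that holds the resting voltage, measured 1.98, 2.31 and 2.04 on the 3 KO arrays, against 1.46, 1.74 and 1.78 on the 3 WT arrays. The KO values were all higher, by 0.45 with a standard error of 0.13 and an adjusted limma p of 0.180, and its other tested probe gave 0.41. Kcnj4, a strong rectifier of the forebrain, measured -1.87, -2.04 and -2.16 on the 3 KO arrays, against -1.70, -1.78 and -1.44 on the 3 WT arrays. Its KO values were all lower, by a difference of -0.38 with a standard error of 0.12. Kcnj10, the rectifier by which glia take up potassium, measured 0.66, 0.66 and 0.19 on the 3 KO arrays, against 0.71, 1.27 and 0.75 on the 3 WT arrays, a difference of -0.41 with a standard error of 0.20. These rectifiers lay on both sides of WT.

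Kcnj16, which joins Kcnj10, had a difference of 0.24 with overlapping groups. Kcnj9, a G-protein-gated subunit above background on 1 KO array, measured -4.12, -3.43 and -4.44 in KO, against -3.72, -3.35 and -3.73 in WT. Kcnj13, known from retinal pigment epithelium, measured -4.24, -4.06 and -4.69 in KO, against -4.21, -4.45 and -4.38 in WT, and Kcnj15 measured -4.16, -4.27 and -4.28 in KO, against -4.23, -4.05 and -3.90 in WT. Both were above background on 3 WT arrays and 0 KO arrays, yet their measured values overlapped, with differences of 0.01 and -0.18. Among the 11 WT-only genes, Kcnf1 and Kcnh2 had all KO values below all WT values, and Kcnab1 had all of them above.

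The other two-pore genes overlapped between groups, unlike Kcnk1. Kcnk13, a channel of microglia and other macrophages, measured 2.37, 2.69 and 2.59 on the 3 KO arrays, against 2.22, 2.44 and 2.36 on the 3 WT arrays, a difference of 0.21. Kcnk6 measured 2.51, 2.55 and 2.45 on the 3 KO arrays, against 2.47, 2.51 and 2.64 on the 3 WT arrays, and its difference of -0.03 had a 95% interval of -0.23 to 0.16. Kcnk4, a mechanosensitive leak channel, had a difference of 0.05. Their intervals lay within 2-fold, while that of Kcnk1 reached from -2.26 to -0.96. Kcnq1ot1, the antisense RNA, measured 2.68, 2.84 and 2.77 on the 3 KO arrays, against 2.41, 2.58 and 2.65 on the 3 WT arrays, and its 4 tested probes gave differences from 0.21 to 0.40.

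Of 34 genes for auxiliary proteins outside the Kcn names and for potassium pumps and cotransporters, 20 were tested and 0 passed the adjusted threshold, where 0.0627% of all genes did. With unadjusted limma p below 0.05, 2 of 20 had lower KO values, beside 7.32% of all genes, and 1 had higher ones, beside 7.85%. Differences were below 0 for 14 of 20, beside 42.4% of all genes, with a median of -0.08. Fxyd6, a regulator of the sodium pump, measured -2.38, -3.73 and -2.21 on the 3 KO arrays, against -0.68, -0.63 and -0.15 on the 3 WT arrays. The groups did not overlap, and the difference was -2.29 with a standard error of 0.40 and an adjusted limma p of 0.0846. Fxyd1, or phospholemman, differed by -0.35 with a standard error of 0.10, and Amigo1, an adhesion protein that accompanies voltage-gated pores, by 0.22 with one of 0.08. Hcn2, a pacemaker channel, gave -0.24, Dpp6, a partner of Kcnd pores, -0.29, the endoplasmic reticulum channel gene Tmem38b 0.33 and the pump subunit gene Atp1b3 0.16.

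Among the marker lists, the osteoblast-lineage sum lay lower in every KO sample than in any WT sample, and the macrophage sum given above lay higher. The summed level of 10 osteoblast-lineage markers was 810.8, 593.6 and 810.9 in KO samples, against 956.3, 1014 and 1038 in WT samples, and 9 of the 10 had differences below 0 with a median of -1.06. Ibsp, a bone matrix protein, passed the adjusted threshold with a difference of -1.72 (limma, adjusted p = 0.0485). KO sample 2 was the lowest of the 6 in this sum and also in Fxyd6. Among the described channel genes with all KO values below WT, KO sample 2 was lowest in Kcnk1, Kcnn1 and Kcnf1. It was not the lowest in Kcnh2, Kcnh4, Kcnj4 or Kcnj10. Kcnf1 was well above background on no KO array and Kcnh2 on KO array 3 only. The order of their dim KO values therefore cannot be read as an order of expression. In bulk RNA, fewer cells of a type and less RNA per cell cannot be told apart. Sums of the 4 tested skeletal muscle markers were 4.35 to 4.71 in KO and 4.25 to 4.59 in WT samples, although Sgca and Chrna1 passed the threshold as lower. On each KO array both lay under the lowest level that counted as well above background, so their KO levels are only upper limits. Myod1, Myog, Myh3 and Ckm were above background on no array. Sums of the 5 tested neural and Schwann cell markers were 10.96 to 11.95 in KO and 11.26 to 12.69 in WT samples, with Rbfox3 above background on no array, and sums of the 3 tested endothelial markers were 0.829 to 1.05 in KO and 0.773 to 1.18 in WT samples, with Tek above background on no array. The part of these markers in the channel differences was not tested.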

How the data were processed

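Expression was measured on 6 one-colour arrays, 3 KO and 3 WT, grouped by sample title. The deposited intensity values are the scanner's background-corrected processed signals, made with Agilent Feature Extraction 10.7.1.1 per the file headers (9.1 per the submitters' processing notes), with probe positions on mm9. In the deposited series table the log2 columns had the same median of 6.16 over matched probes, and it served as an alternative. The sources used here do not say which steps the authors took for those log2 values.

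Outlier spots, 49 to 131 on an array, were dropped and a probe's spots averaged. The log2 signal minus the array's 75th percentile was tested for 28606 probes with limma 3.58.1 in R 4.3.3 (lmFit and eBayes, two-sided, group as sole term, residual df 4, prior df 2.64), with p-values adjusted by Benjamini-Hochberg across these probes, at 0.05. Tested probes were well above background on all 3 arrays of at least 1 group. A gene took its tested probe with the highest mean, and 19139 genes were tested. Of 173 member probes, 149 matched RefSeq by accession, all with the same symbol, and none was saturated. The number of arrays limits the precision.

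Members and lists were chosen with earlier results of these data known. Genes were named by rule: Kcnf1, the 12 detected genes with the highest WT mean, up to 10 per direction by smallest p, those detected in 1 group only and those whose probes disagreed. Any other detected member could also be named with its class, level or difference. Kcne4, Kcnk15 and Kcnk2 were named as genes nearest the detection rule. Some genes are counted but not reported by name here. Lists of partner, macrophage, stromal, osteoblast-lineage, muscle, neural and endothelial genes were counted. Same-numbered KO and WT samples were checked for pairing, with correlations of their deviations of 0.056, 0.154 and -0.032, so the numbers were not taken to pair them.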

Additional observations from a re-analysis of the deposited data

How the results depend on the processing

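The count of channel genes with an adjusted p under 0.05 (limma) was 1 in the reported fit (Kcnf1, by which the family was chosen), where 12 of all genes were called. It was 3 with normexp and quantile normalization (Kcnf1 and Kcnk1 among them), where 162 of all genes were called, and 2 with a variance trend (Kcnf1 and Kcnk1), where 154 were, so the calls over the whole array rose too. It was 0 with the deposited series table, where unadjusted limma p below 0.05 gave 7 channel genes lower and 5 higher (18.4% and 13.2%, beside 8.16% and 6.60% of all genes). It was 0 with probes above background on all 6 arrays, with 4 lower and 4 higher (14.8% each, beside 6.71% and 8.81%), and 0 with a gene's probes averaged, with 6 lower and 6 higher (15.8% each, beside 7.57% and 8.67%). It was 0 without a filter, with 11 of 96 lower and 26 higher (11.5% and 27.1% of the channel genes), beside 3.87% and 26.9% of all genes. It was 0 without the 2 arrays with Xist signal, with 5 lower and 7 higher (12.8% and 17.9%, beside 6.03% and 5.47%). With the replicate block it was 0, with 10 lower and 8 higher (26.3% and 21.1%, beside 7.73% and 8.00%). Leaving out 1 array in turn gave 0 to 1, and the 1 call, without KO replicate 3, was Kcnh2. With 1 array left out, 6 to 9 channel genes (15.8% to 23.7%) were lower and 2 to 8 (5.00% to 21.1%) higher at an unadjusted p, beside 6.09% to 7.37% and 5.42% to 7.52% of all genes. The median difference was 0.0518 with probes above background on all 6 arrays and 0.157 without a filter, where the median of all genes was 0.117, and it ran from -0.06 to 0.01 with 1 array left out. Detected channel genes numbered 41, 27 and 38 to 40 with at least 2 arrays of a group, all 6 arrays and 1 array left out.

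The Kcnf1 difference ran from -2.58 with the deposited table to -0.96 with normexp, and Kcnf1 did not pass the filter where all 6 arrays had to be above background. Kcnh2 measured -0.76 with normexp. Of 30 genes that the naming rule takes, 22 kept 1 sign in every setting run and 8 changed it at least once. Slide and scan time as a block were not run, since all arrays shared 1 slide and 1 scan time. For channel genes near the detection level, signal over background limits what a difference can show.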
